A study of Mus musculus with 2 samples.

Results

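The stathmins and the collapsin response mediator proteins (CRMPs) are 2 families of proteins that act on microtubules in growing axons. The 4 stathmin genes (Stmn1, Stmn2, Stmn3 and Stmn4) and the 5 CRMP genes (Crmp1, Dpysl2, Dpysl3, Dpysl4 and Dpysl5) were picked by gene symbol alone, which makes 9 of the 43346 annotated genes in the tables. All 9 were found. Total RNA came from the neural tube, the embryonic structure that becomes the brain and spinal cord, of B6NCrl mouse embryos at 15.5 days. The labels name no treatment, and embryos of both sexes were pooled: 78 embryos for replicate 1 and 62 for replicate 2. Both libraries belong to 1 group, which leaves no contrast of conditions, and each SD below reflects only how far these pools differ.

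Stathmins bind free tubulin dimers and promote the shrinkage of microtubules, and phosphorylation weakens their grip on tubulin. CRMPs bind tubulin and help microtubules to grow, carry cargo in axons, and relay the repulsive guidance signal Sema3A to the growth cone. Both families are abundant in postmitotic neurons that are extending axons, while Stmn1 is also abundant in dividing cells. CRMPs share their ancestry with the enzyme dihydropyrimidinase (Dpys), which breaks down pyrimidines in liver and kidney.

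Replicate 1 held 35430338 expected counts as deposited and replicate 2 held 42321669, of which 34678043 and 41355355 fell in annotated genes. TPM is the deposited level, per length of transcript and scaled to the same total in each library. Neuronal markers were high in both pools, with summed levels of 3896.94 and 4583.66 TPM. All 10 genes of the neuronal list were at or above 1 TPM in both libraries, as were 35.8% of all annotated genes. Replicate 1 stood apart in markers of other cell types. Its 6 epithelial markers summed to 636.99 TPM against 8.2 TPM in replicate 2, its 9 thymocyte markers to 271.71 against 9.75 TPM, and its 10 markers of dividing cells to 622.91 against 271.67 TPM. Of the thymocyte markers, Cd3g was at 93.01 TPM in replicate 1 and 0 TPM in replicate 2, and Lck at 81.53 and 9.17 TPM. Cd4 (0.5 and 0.14 TPM), Cd8a (0.48 and 0 TPM) and Dntt (0.3 and 0.17 TPM) were low in both. In bulk tissue, fewer cells of a type and less RNA per cell cannot be told apart.

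The 3 stathmins made mainly by neurons begin differently from Stmn1. Stmn2 (SCG10), Stmn3 (SCLIP) and Stmn4 (RB3) carry a short leader that is palmitoylated on a pair of cysteines and ties the protein to Golgi and vesicle membranes. Stmn1 lacks this leader and is free in the cytosol. The first 90 coding bases of the leading transcript of each gene are shown because they hold that difference, read from GENCODE release M21 transcripts on GRCm38, 5′ to 3′, with cysteine codons in capitals. The coding sequence of Stmn1 begins at chr4:134470163 on the plus strand, that of Stmn2 at chr3:8509612 (plus), that of Stmn3 at chr2:181314212 (minus) and that of Stmn4 at chr14:66354433 (plus).
Stmn1-201: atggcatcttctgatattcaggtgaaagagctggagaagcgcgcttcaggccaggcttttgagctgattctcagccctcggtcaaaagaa
Stmn2-201: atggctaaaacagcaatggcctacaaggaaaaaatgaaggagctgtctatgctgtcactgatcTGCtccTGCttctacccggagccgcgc
Stmn3-201: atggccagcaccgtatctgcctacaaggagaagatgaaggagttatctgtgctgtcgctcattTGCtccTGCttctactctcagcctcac
Stmn4-201: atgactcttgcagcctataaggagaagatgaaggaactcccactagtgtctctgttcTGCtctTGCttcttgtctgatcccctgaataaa
Counted from the start codon, the cysteine codons are 22 and 24 in Stmn2 and in Stmn3, and 20 and 22 in Stmn4. The Stmn1 stretch has 0 cysteine codons. Over the aligned coding bases, the 4 genes were 68.0% (Stmn1 with Stmn3) to 73.6% (Stmn2 with Stmn3) identical.

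All 9 members were at or above 1 TPM in both libraries, as were 35.8% of all annotated genes. Stmn1 (ENSMUSG00000028832, chromosome 4, plus strand) was the most abundant member. Its level was 3326.22 TPM in replicate 1 and 4028.84 TPM in replicate 2, a mean of 3678 ± 497 TPM (SD, n = 2), which placed it 12 and 8 among protein-coding genes. Stmn1 alone held 58.1% ± 0.55 (SD, n = 2) of the summed stathmin TPM. Its exons overlap on the same strand the microRNA gene Gm23634, listed with 0 counts in both libraries. The deposited posterior SD of the Stmn1 count, 17.24 and 22.37 counts, was small beside counts of 70722 and 102187.

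Of the membrane-anchored stathmins, Stmn3 (ENSMUSG00000027581, chromosome 2, minus strand) was the highest. It stood at 1135.16 TPM in replicate 1 and 1414.52 TPM in replicate 2 (1275 ± 198 TPM, SD, n = 2). Stmn2 (ENSMUSG00000027500, chromosome 3, plus strand), which is needed for axon growth and maintenance, stood at 870.9 and 1077.1 TPM (974 ± 146 TPM, SD, n = 2). The values of Stmn3 and Stmn2 did not overlap, and the ratio of their TPM levels was 1.31 ± 0.0070 (SD, n = 2). Stmn4 (ENSMUSG00000022044, chromosome 14, plus strand) was the lowest stathmin, at 352.82 and 457.7 TPM (405 ± 74.2 TPM, SD, n = 2). On the TPM scale, Stmn1 was 2.89 ± 0.058 times Stmn3 and 3.78 ± 0.056 times Stmn2, and Stmn2 was 2.41 ± 0.081 times Stmn4 (SD, n = 2 each). These ratios varied between pools by less than the levels themselves, whose SD was 13.5% of the mean for Stmn1 and 18.3% for Stmn4.

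**Figure D1:**
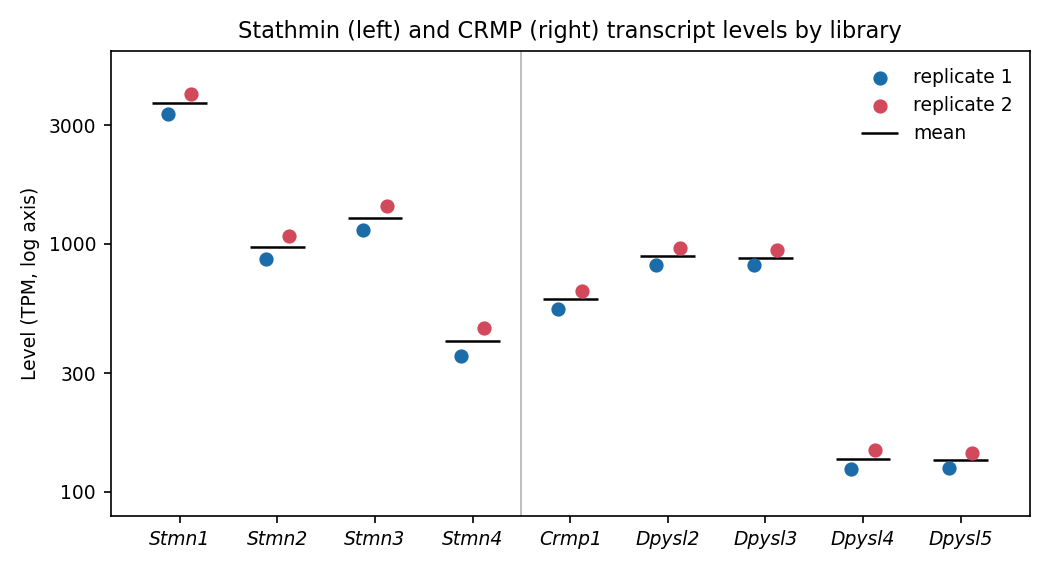
Level of each gene in TPM (log axis) in replicate 1 and replicate 2, stathmins on the left and CRMPs on the right, with a line at the mean of the 2 libraries. Mean levels run from 134 TPM for Dpysl5 to 3678 TPM for Stmn1, and the values of Stmn2, Dpysl2 and Dpysl3 overlap, as do those of Dpysl4 and Dpysl5.

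Among the CRMPs, Dpysl2 and Dpysl3 were the highest, with overlapping values. Dpysl2 (ENSMUSG00000022048, chromosome 14, minus strand) encodes CRMP2, which carries tubulin dimers to growing microtubule ends, and stood at 819.44 and 958.7 TPM (889 ± 98.5 TPM, SD, n = 2). Dpysl3 (ENSMUSG00000024501, chromosome 18, minus strand) encodes CRMP4, which also binds actin, and stood at 816.76 and 940.32 TPM (879 ± 87.4 TPM, SD, n = 2). The ratio of their TPM levels was 1.01 ± 0.012 (SD, n = 2). Crmp1 (ENSMUSG00000029121, chromosome 5, plus strand), a mediator of the Sema3A signal, was lower and did not overlap them, at 545.65 and 646.67 TPM (596 ± 71.4 TPM, SD, n = 2).

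Dpysl4 (CRMP3) and Dpysl5 (CRMP5) formed the low end of both families. Dpysl4 (ENSMUSG00000025478, chromosome 7, plus strand) stood at 123.8 and 147.2 TPM (136 ± 16.5 TPM, SD, n = 2). Dpysl5 (ENSMUSG00000029168, chromosome 5, plus strand) stood at 124.48 and 143.11 TPM (134 ± 13.2 TPM, SD, n = 2). Their order switched between the libraries, with a ratio of TPM levels of 0.995 in replicate 1 and 1.03 in replicate 2. Dpysl2 was 6.57 ± 0.075 times Dpysl4 and Crmp1 was 4.45 ± 0.096 times Dpysl5 in TPM (SD, n = 2 each). Dpysl5 is also the member whose coding sequence stands farthest from the rest of its family, with 59.6% to 61.6% of aligned bases identical to the other 4 CRMPs, which were 69.7% (Dpysl3 with Dpysl4) to 74.3% (Crmp1 with Dpysl2) identical among themselves. Dpys, the related enzyme, was near 0 at 0.17 and 0.35 TPM, from 9 and 22 counts.

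From high to low, the mean TPM ran from Stmn1 through Stmn3, Stmn2, Dpysl2, Dpysl3, Crmp1, Stmn4 and Dpysl4 to Dpysl5. Of the 8 pairs of neighbours in this order, Stmn2 with Dpysl2, Dpysl2 with Dpysl3, and Dpysl4 with Dpysl5 overlapped between libraries. The ratio of Stmn2 to Dpysl2 in TPM was 1.09 ± 0.043 (SD, n = 2). The remaining neighbours did not overlap. Summed over each family, the stathmins reached 5685.1 and 6978.16 TPM and the CRMPs 2430.13 and 2836 TPM. The stathmin sum was therefore 2.40 ± 0.086 times the CRMP sum (SD, n = 2) on the TPM scale, which divides by length. In CPM, counts scaled to library size but not to length, the ratio was 0.823 ± 0.030 (SD, n = 2), since deposited effective lengths were 958 to 1945 bases for the stathmins and 2357 to 4874 bases for the CRMPs.

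By the 3 protein-coding genes nearest in log2(TPM + 1) over the 2 libraries, Stmn2 stood beside Uchl1, a ubiquitin hydrolase of neurons, with 860.65 and 1080.11 TPM, at a Euclidean distance of 0.0175. Nrep (879.95 and 998.22 TPM, distance 0.111) and Elob (901.6 and 986.21 TPM, distance 0.137) came next. Dpysl3 stood beside Ndfip1 (804.23 and 941.8 TPM, distance 0.0224), Cox6c (835.11 and 930.14 TPM, distance 0.0357) and Jpt1 (829.89 and 965.11 TPM, distance 0.0440). With only 2 libraries, nearness is little more than a like level.

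By the shares of their listed transcripts, some members were nearly all 1 transcript and others were divided. The deposited tables give the percent of the TPM of a gene that each transcript holds. Stmn3-201 and Dpysl2-201 were the only transcripts listed for their genes, so their shares were fixed in advance and other products could not be seen. Stmn1-201 held 99.12% and 98.96% of Stmn1 in replicates 1 and 2, and Stmn2-201 held 96.54% and 97.15% of Stmn2. Most of the rest of Stmn2 was Stmn2-203, a non-coding model of 308 bases with 2.72% and 2.14% of the TPM but only 110 and 127 counts. A leading transcript above 50% in both libraries was present in 8 of the 9 members, the exception being Dpysl5. Of the 7 members with 2 or more transcripts, 6 had one, and among all 8464 such protein-coding genes at a mean of at least 5 TPM the share was 69.6%.

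**Figure D2:**
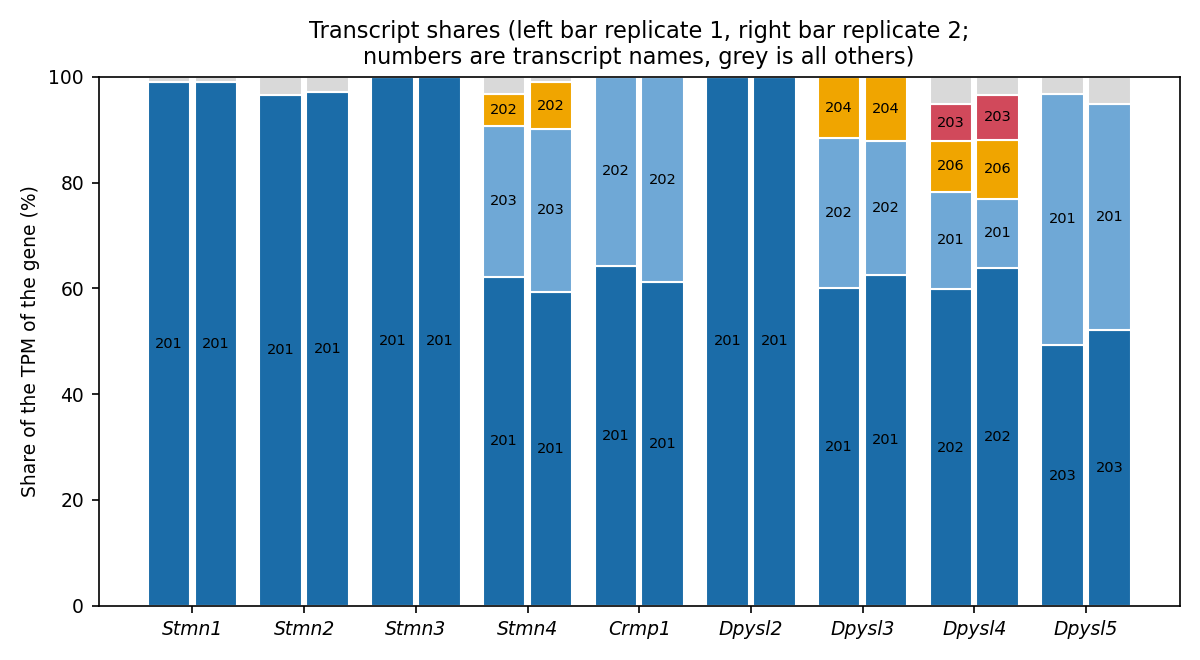
Percent of the TPM of each gene held by each transcript in replicate 1 (left bar) and replicate 2 (right bar), with transcripts under 5% in both libraries in grey. Stmn1 and Stmn2 are nearly all 1 transcript, and Stmn3 and Dpysl2 have only 1 listed. Stmn4, Crmp1, Dpysl3, Dpysl4 and Dpysl5 are divided, and no share moved by more than 5.37 percentage points between the pools.

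Stmn4 was the stathmin with alternative products. Stmn4-201 (189 codons) held 62.19% and 59.36% of its TPM, Stmn4-203 (216 codons) 28.59% and 30.82%, and Stmn4-202 (176 codons) 5.95% and 8.77%. Stmn4-203 differs by a cassette exon of 81 bases at chr14:66356269-66356349 that adds 27 codons between the membrane leader and the tubulin-binding part. This exon is shown in capitals with 15 spliced bases on each side, from the same source, because the longer product turns on it.
Stmn4-203 exon: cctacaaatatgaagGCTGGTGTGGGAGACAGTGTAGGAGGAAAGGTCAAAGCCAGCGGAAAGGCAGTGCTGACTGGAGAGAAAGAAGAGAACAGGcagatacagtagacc
The next shares are of the summed TPM of Stmn4-201, Stmn4-202, Stmn4-203 and Stmn4-204, the last of which holds both alternative exons. Transcripts with the 81-base exon made up 30.7% in replicate 1 and 31.1% in replicate 2 (30.9% ± 0.29, SD, n = 2). Stmn4-202 instead holds an exon of 53 bases at chr14:66358679-66358731, in which its coding sequence ends early. Transcripts with the 53-base exon made up 7.72% and 8.86% (8.29% ± 0.81, SD, n = 2). Both sums include Stmn4-204, which the model placed at 5.82 TPM in replicate 1 and 0 TPM in replicate 2. Alone, Stmn4-203 held 28.59% and 30.82% of the gene and Stmn4-202 5.95% and 8.77%, so the small SDs rest partly on Stmn4-204. In replicates 1 and 2, Stmn4-201 stood at 219.42 and 271.71 TPM, Stmn4-203 at 100.88 and 141.08 TPM, and Stmn4-202 at 20.98 and 40.14 TPM. The deposited intervals go with the posterior mean TPM, a second deposited estimate, and not with these TPM values. They did not overlap between the libraries for any of the 3, although the sources used here do not give the level at which those intervals hold. The intervals compare levels, which were higher in replicate 2 for Stmn4 as a whole, and not shares.

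The 2 Crmp1 transcripts listed begin 3684 bases apart. Crmp1-202 begins upstream at chr5:37242080, and its first exon holds 127 codons of a protein of 686. Crmp1-201 begins downstream at chr5:37245764, inside the first intron of Crmp1-202, with 13 codons in its first exon and 572 in all. The remaining exons are shared, so the products differ at the amino end. Crmp1-201 stood at 350.35 TPM in replicate 1 and 395.46 TPM in replicate 2, and Crmp1-202 at 195.3 and 251.21 TPM. The upstream start gave 35.8% and 38.8% of the TPM of Crmp1 (37.3% ± 2.16, SD, n = 2), so the shorter product led in both pools.

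The 250 bases before each Crmp1 start in RefSeq are shown because, of the members with divided starts, Crmp1 is the one with a window at each. The part of these windows in the use of the starts was not tested. They lie on the plus strand of GRCm38.p6 at chr5:37241808-37242057 (upstream, ending 22 bases short of the start of Crmp1-202) and chr5:37245514-37245763 (downstream, ending at the start of Crmp1-201). In GENCODE M21 the Crmp1 gene begins further upstream, at chr5:37241940, so part of the upstream window lies inside the annotated gene. Capitals mark GC boxes, searched as GGGCGG on either strand, with overlapping matches counted separately.
Crmp1 upstream window: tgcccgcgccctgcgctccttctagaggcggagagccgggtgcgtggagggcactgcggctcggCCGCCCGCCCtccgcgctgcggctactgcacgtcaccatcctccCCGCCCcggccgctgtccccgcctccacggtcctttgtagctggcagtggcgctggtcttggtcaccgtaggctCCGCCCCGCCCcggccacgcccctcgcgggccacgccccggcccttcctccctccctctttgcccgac
Crmp1 downstream window: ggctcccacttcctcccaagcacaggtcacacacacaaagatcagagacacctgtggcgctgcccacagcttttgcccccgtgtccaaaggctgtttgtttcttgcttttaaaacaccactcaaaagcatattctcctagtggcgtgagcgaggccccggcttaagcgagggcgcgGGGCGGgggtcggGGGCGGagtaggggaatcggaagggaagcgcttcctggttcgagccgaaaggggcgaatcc
The upstream window is 75.6% G or C with 30 CpG and 5 GC boxes, and the downstream window 59.6% with 16 CpG and 2 GC boxes. Among all 32851 RefSeq windows of that length, the median was 52.4% G or C and 6 CpG, and 32.7% held a GC box. Neither window held CCAAT, found in 33.8% of all windows, or TATAAA, found in 12.4%, both searched on either strand. RefSeq windows were at hand for 3 of the 9 members. Those of Dpysl5 (62.8% G or C, 17 CpG, 1 GC box) and Stmn3 (48.8%, 3 CpG, 0 GC boxes) likewise held neither CCAAT nor TATAAA. A match is a description of letters and shows no binding.

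**Figure D3:**
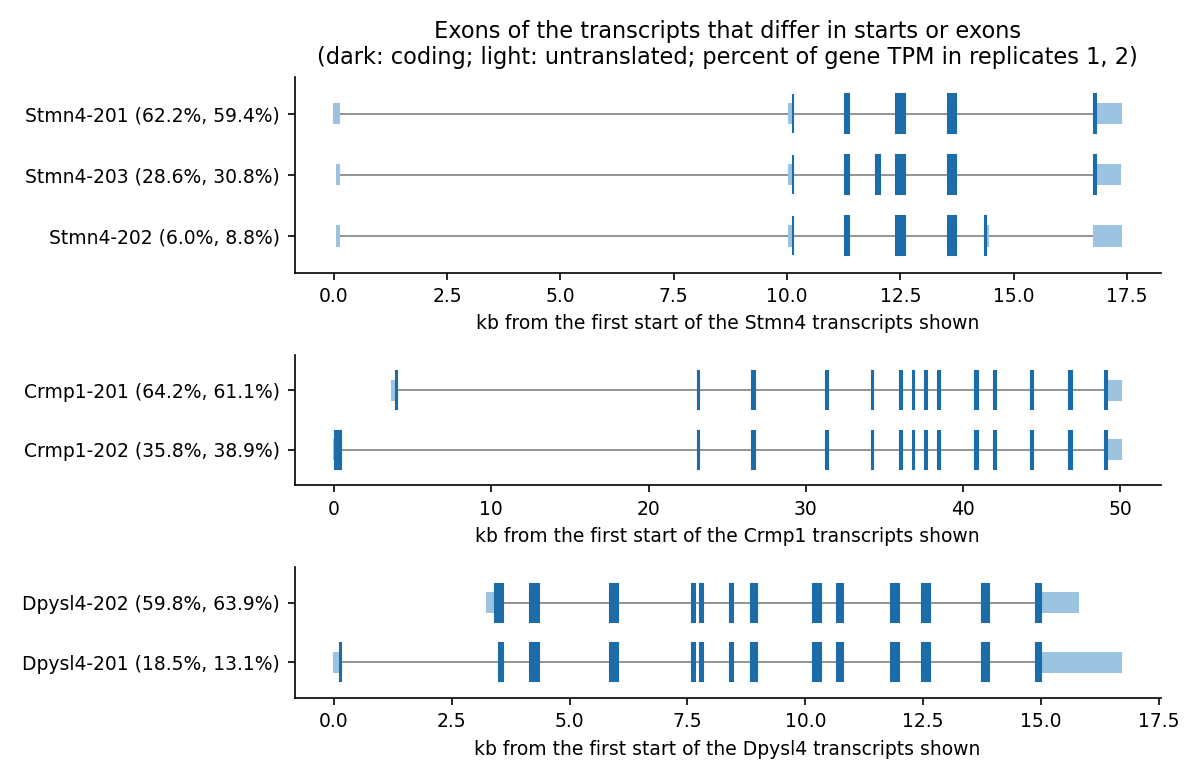
Exons of the named Stmn4 and Crmp1 transcripts and of the 2 leading coding Dpysl4 transcripts, in kb from the first start shown; dark boxes are coding and light boxes untranslated. Stmn4-203 has 1 coding exon more than Stmn4-201, and the Crmp1 and Dpysl4 transcripts share all but their first coding part.

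The TPM of Dpysl3 was divided over 3 transcripts with different first exons. Dpysl3-201, with 13 codons in its first exon and 570 in all, stood at 491.21 TPM in replicate 1 and 588.42 TPM in replicate 2. Dpysl3-202 (11 codons of 568) begins 20105 bases further downstream and stood at 231.41 and 238.68 TPM. Dpysl3-204 begins 44909 bases upstream of Dpysl3-201, carries 126 codons in its first exon of 683, and stood at 93.22 and 112.77 TPM. Of the TPM of the 3, they held 61.4% ± 1.70, 26.9% ± 2.10 and 11.7% ± 0.40 in this order (SD, n = 2). Dpysl3-204 is a model of 5484 bases, so its 11.7% of TPM corresponded to 26.1% and 27.1% of the counts. Its model also ends further downstream, at chr18:43320984, against 43324288 for Dpysl3-201 and 43324227 for Dpysl3-202. Reads from that stretch can be assigned to Dpysl3-204 alone, so the shares do not measure the first exons by themselves. The long first exons of Dpysl3-204 and Crmp1-202, with 126 and 127 codons, resemble each other in length, as do the short ones of Dpysl3-201, Crmp1-201 and Dpysl2-201, each with 13 codons.

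Dpysl4 had 4 transcripts at 5% or more of its TPM, the largest number among the members. Dpysl4-202 led with 74.04 TPM in replicate 1 and 93.99 TPM in replicate 2, which was 59.81% and 63.85% of the gene. It begins at chr7:139089247, 3246 bases downstream of Dpysl4-201 and inside the first intron of that transcript. Its first exon, chr7:139089247-139089598, is a longer form of the second exon of Dpysl4-201, and its coding sequence has 593 codons against 572. Dpysl4-201 stood at 22.9 and 19.33 TPM, or 18.5% and 13.13%. This was the largest shift of any share of a member between the pools, at 5.37 percentage points, and of the transcripts at 5% or more it alone had a lower TPM in replicate 2, but its deposited intervals overlapped. Dpysl4-206 and Dpysl4-203 also begin in the first exon of Dpysl4-201, at chr7:139086027 and chr7:139086028, and together held 16.5% and 19.6% of the TPM. The Dpysl4-201 model also ends further downstream, at chr7:139102704 against 139101777 for Dpysl4-202. Reads from that stretch can be assigned to Dpysl4-201, so the shares do not measure the starts by themselves.

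Transcripts annotated as retaining introns made up 16.5% and 19.6% of the TPM of Dpysl4. They were Dpysl4-206 (11.8 and 16.39 TPM) and Dpysl4-203 (8.65 and 12.44 TPM). In the other 8 members such transcripts held 0% to 2.89%. Stmn1, Stmn3, Crmp1, Dpysl2 and Dpysl3 have no transcript so annotated, so their 0% was fixed in advance. The median over the 8464 protein-coding genes with 2 or more transcripts was 0.954% in replicate 1 and 1.07% in replicate 2. That median counts genes without such a transcript as 0%, so the contrast with Dpysl4 mixes annotation with level.

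Dpysl5 was divided nearly evenly between 2 starts 330 bases apart. Dpysl5-203, from chr5:30711564, stood at 61.26 TPM in replicate 1 and 74.68 TPM in replicate 2. Dpysl5-201, from chr5:30711894, stood at 59.27 and 61.13 TPM. Both have a coding part of 564 codons, and they differ in their first exons, of 439 and 276 bases, and slightly in where they end. Of the TPM of the 2, Dpysl5-203 held 50.8% in replicate 1 and 55.0% in replicate 2 (52.9% ± 2.94, SD, n = 2), and the deposited intervals of both transcripts overlapped between the libraries.

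The pools were set side by side over the 11969 genes that averaged 5 TPM or more with 50 or more counts in all, a filter that all 9 members passed. Each of the 9 was lower in replicate 1 than in replicate 2, against 48.6% of those genes, and replicate 2 was 15% (Dpysl5) to 29.7% (Stmn4) above replicate 1 in TPM. A gene was called apart where (TPM + 1) differed at least 2-fold. That held for 0 of the 9 members and for 3.48% of the 11969 genes, of which 400 were higher and 16 lower in replicate 1. The log2 ratio of (TPM + 1), replicate 1 over replicate 2, ran from −0.37 (Stmn4) to −0.20 (Dpysl5), with a median of −0.25 over the members and 0.0071 over all 11969 genes. The stathmins had a median of −0.31 and the CRMPs of −0.23, and their ranges, −0.37 to −0.28 and −0.25 to −0.20, did not overlap. Counting error was far smaller than these shifts: the 95% Poisson half-width was 0.585% of the count for Dpysl2 in replicate 2 up to 2.22% for Dpysl4 in replicate 1. With 1 library a pool, the shift has no replicate check.

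Neuronal genes were lower in replicate 1 as well. All 10 genes of the neuronal list were lower in replicate 1, with a median log2 ratio of −0.27 and a range of −0.55 (Elavl3) to −0.09 (Snap25), which spans the 9 members. Relative to the neuronal median, the members had a median of 0.020 and 4 of 9 were lower in replicate 1. Scaled to the spike-in RNAs, all 9 were still lower, with a median of −0.13. Of the 6 sensory ganglion markers, 5 were lower in replicate 1 (median −0.18), and of the 8 progenitor markers 6 were (median −0.13).

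Glial markers were mixed. Of the 6 markers of the oligodendrocyte lineage 2 were lower in replicate 1 (median log2 ratio 0.12), and of the 4 of astrocytes 2 were (median 0.11), with summed astrocyte levels of 346.69 TPM in replicate 1 and 389.99 TPM in replicate 2. Markers of non-neural cell types and of division were higher in replicate 1. The median log2 ratio was 0.25 for the 5 mesenchymal markers, 1.29 for the 10 of dividing cells, 3.35 for the 9 of thymocytes and 4.23 for the 6 of epithelium. Every gene of these 4 lists was higher in replicate 1. Of the genes that passed the filter, 9 of 10 markers of dividing cells, 5 of 5 of thymocytes and 5 of 5 of epithelium were apart. The share over all genes that passed was 3.48%. Stmn1, also a gene of dividing cells, lay at −0.28. The ranges of the neuronal (−0.55 to −0.09), progenitor (−0.49 to 0.72) and sensory ganglion (−0.31 to 0.06) lists all held this value. The range of the dividing list (0.61 to 1.69) did not, and which cells gave the Stmn1 RNA was not tested. The part of the non-neural and dividing cell types in the lower levels of the members in replicate 1 was not tested.

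**Figure D4:**
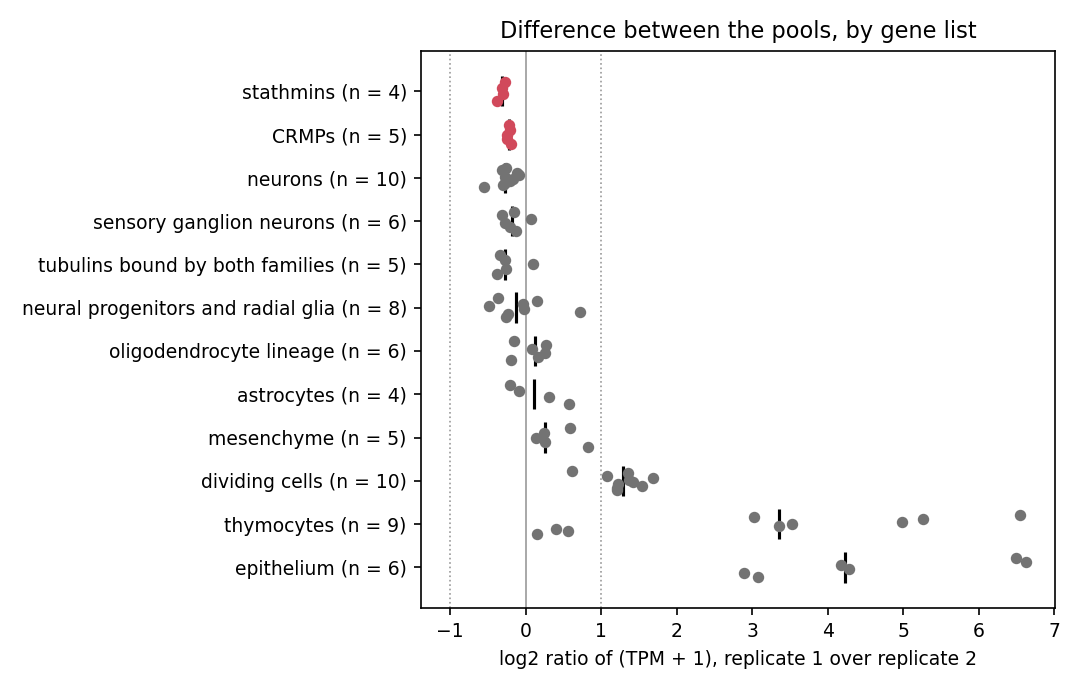
Log2 ratio of (TPM + 1), replicate 1 over replicate 2, for each gene of the member families and of the cell type and tubulin lists, with a bar at the median of each list and dotted lines at a 2-fold difference. The 9 members lie between −0.37 and −0.20, within the ranges of the neuronal, progenitor and tubulin lists, while the lists of dividing cells, thymocytes and epithelium lie to the right of 0.

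The listed genes that act on stathmins were all expressed. Phosphorylation by kinases such as protein kinase A, the JNK family and Cdk1 switches stathmins off. All 12 kinases of the list were at or above 1 TPM in both libraries, as were 35.8% of all annotated genes. Prkaca, the catalytic subunit of protein kinase A, was the highest at 200 ± 12.4 TPM (SD, n = 2). By mean TPM, Pak1 (92.1 ± 9.48 TPM) and Cdk1 (80.2 ± 50.2 TPM) came next, and Uhmk1 (6.70 ± 0.099 TPM) and Mapk13 (6.36 ± 7.54 TPM) last (SD, n = 2 each). The places of Cdk1 and Mapk13 differed between the libraries: Cdk1 was above Pak1 in replicate 1 and below Cdk5 (77.36 TPM) in replicate 2, and Mapk13 was above Uhmk1 in replicate 1 and below it in replicate 2. Of the 12 kinases, 3 were apart, against 3.48% of all genes that passed the filter. All 3 were higher in replicate 1: Cdk1 at 115.77 against 44.71 TPM, Aurkb at 39.15 against 12.84 TPM and Mapk13 at 11.69 against 1.03 TPM. Cdk1 and Aurkb are mitotic kinases and stand in the list of dividing cells, of which 9 of 10 were apart. The part in these 3 differences of the cell types whose markers were higher in replicate 1 was not tested.

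All 3 listed palmitoyl transferases that anchor stathmins were at or above 1 TPM in both libraries, against 35.8% of all annotated genes. Of the 3, 0 were apart, against 3.48% of all genes that passed the filter. Zdhhc3 stood at 66.7 ± 1.92 TPM, Zdhhc17 at 29.7 ± 1.08 TPM and Zdhhc7 at 25.4 ± 2.80 TPM (SD, n = 2 each). Of the regulators of Stmn2 RNA, Tardbp, which encodes the RNA-binding protein TDP-43, stood at 159.61 TPM in replicate 1 and 127.25 TPM in replicate 2. Rest, the repressor of neuronal genes whose targets include Stmn2, was low at 8.93 and 5.07 TPM, as was its partner Rcor1 at 4.96 and 3.7 TPM. All 3 regulators were higher in replicate 1. Rcor1 averaged under 5 TPM and did not pass the filter, and of the other 2, 0 were apart.

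The listed kinases of the CRMPs were likewise all expressed. Cdk5 with its activators primes CRMPs for Gsk3b, and phosphorylated CRMPs let go of tubulin. All 11 genes of the list were at or above 1 TPM in both libraries, against 35.8% of all annotated genes, and 8 were lower in replicate 1. Of the 10 that passed the filter (all but Fes), 0 were apart, against 3.48% of all genes that passed. Gsk3b stood at 112 ± 8.51 TPM, Camk2b at 104 ± 15.8 TPM and Cdk5 at 71.9 ± 7.75 TPM (SD, n = 2 each). The lowest were Rock2 at 7.75 ± 0.48 TPM and the tyrosine kinase Fes at 3.83 ± 1.46 TPM.

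Partners of the CRMPs and the Sema3A receptor genes made a list of 14, all at or above 1 TPM in both libraries, against 35.8% of all annotated genes. Of these 14, 9 were lower in replicate 1 and 0 were apart, against 3.48% apart among all genes that passed the filter. The kinesin subunits that CRMP2 links to its cargo led the list, Klc1 at 440 ± 36.0 TPM and Kif5b at 110 ± 2.24 TPM (SD, n = 2 each). Nrp1, the receptor subunit that binds Sema3A, followed at 54.2 ± 4.45 TPM. Plxna4, a signalling subunit, stood at 10.2 ± 1.53 TPM and the oxidoreductase Mical3 was the lowest at 8.74 ± 0.91 TPM. Among the 5 tubulins, the common partner of both families, Tuba1a was the highest at 10958 ± 1809 TPM and Tubb2a followed at 2447 ± 328 TPM (SD, n = 2 each). Tuba1b (1188 ± 52.7 TPM), the neuronal Tubb3 (1167 ± 152 TPM) and Tubb2b (870 ± 164 TPM) were lower (SD, n = 2 each). Of the members, Stmn1 alone had a higher mean TPM than Tubb2a.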

How the data were processed

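For each library, gene and transcript tables were deposited that rest on mm10 and GENCODE M4, as the notes deposited with each sample state. The sources used here do not say how reads were aligned, assigned or treated by strand. Per the labels, total RNA above 200 nucleotides was isolated, 10 ng was used per library and spike-in RNAs were added (2.12% and 2.28% of counts in replicates 1 and 2). The tables hold, per the file headers, an expected count (reads shared among transcripts by a model), TPM and FPKM, both deposited by the authors and already divided by effective length, and the percent of the TPM of a gene in each transcript. Posterior means and their interval bounds, kept here as a score, were also deposited by the authors. The number-only entries (26248 of 69691), 96 spike-ins and 1 phage entry were left out of gene analyses.

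Symbols, coordinates and transcript names came from GENCODE M21 on GRCm38 (the same assembly as mm10), by identifier without version (42462 of 43346 genes matched). Model lengths of the named transcripts differed from the deposited ones by at most 5 bases. Promoter windows came from RefSeq on GRCm38.p6. The members and lists were chosen with earlier results of these data known. Levels are mean and SD over 2 libraries, and the pools were compared by log2((TPM + 1) ratio), with no test, since each pool has 1 library. Named were all members, their transcripts at 5% or more in either library, the 3 highest and 2 lowest genes by mean TPM of each list of interacting genes and those of them apart between the pools, and the 3 nearest genes of Stmn2 and Dpysl3. Cell type lists are given by counts, sums and medians in place of names. Genes and transcripts named outside this rule (Snap25, Elavl3, Cd3g, Lck, Cd4, Cd8a, Dntt, Stmn2-203, Stmn4-204) were chosen after their values were seen. Alternative scalings used expected counts rounded to whole numbers in edgeR 4.0.16 (TMM) and DESeq2 1.42.0 (size factors) in R 4.3.3, and these steps were tested on simulated data. The rest ran in Python 3.11.15 with pandas 2.3.3, and coding sequences were aligned with Biopython 1.88. Poisson intervals cover counting error only.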

Additional observations from a re-analysis of the deposited data

How the results depend on the processing

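All 9 members were detected, and 0 were apart between the pools, under every alternative run for those counts (thresholds of 0.5 and 5 TPM, CPM, rescaled and posterior mean TPM, FPKM, TMM, size factors, another pseudocount, no filter, a fold of 1.5). The median log2 ratio of the members stayed between −0.30 and −0.25 under the planned scalings. With 2 scalings chosen after seeing the data it was −0.13 relative to spike-ins, where the median of all genes was 0.12 (a shift of 0.11), and 0.020 relative to the neuronal list, a change of sign. The stathmin to CRMP ratio fell to 0.823 in CPM, which are not divided by length, and was 2.34 to 2.46 in the single libraries. A threshold of 75% left 4 members with 1 leading transcript (Stmn1, Stmn2, Stmn3 and Dpysl2), and coding transcripts alone gave 9. Leaving out 1 library gave 9 to 9 detected members and 8 to 9 with a leading transcript. No paired analysis was possible because the libraries form 1 group. Depth was no limit for any member. The limits are 1 library a pool, an unknown use of strand, and transcript shares that rest on the assignment of shared reads by a model.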
